A study of Mus musculus with 10 samples.

Results

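The comparison described here asks what was added when mRNA for interleukin 12 (IL-12) was given to T cells together with mRNA for DRIL18, a form of interleukin 18 (IL-18) that its natural decoy receptor does not bind. The members are 4 of the 10 libraries of the series, taken by the group their labels give: 2 libraries of cells given a mixture of the single-chain IL-12 and DRIL18 mRNAs (mixture) and 2 libraries of cells given DRIL18 mRNA alone (DRIL18). All 4 come from the spleens of pmel-1 mice, whose transgenic T cell receptor is specific for gp100, a melanoma antigen. The splenocytes were stimulated with the human gp100 peptide for 48 h, kept with human IL-2 for another 48 h, electroporated with mRNA, and harvested for poly(A) RNA sequencing after a further 24 h. Both groups thus share the antigen, the IL-2, the electroporation and the DRIL18 mRNA, and differ by the IL-12 mRNA. How much of each mRNA was used, and whether the total amount was the same in both groups, is not stated. To see whether IL-12 mRNA acted alike without DRIL18, the same addition was read in electroporated control cells, as the 2 libraries with IL-12 mRNA alone (IL12) against the 2 electroporated controls (Mock). What the Mock cells received is not stated.

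IL-12 is a heterodimeric cytokine made by antigen-presenting cells. It signals through the receptor chains IL-12Rβ1 and IL-12Rβ2, the kinases JAK2 and TYK2 and the transcription factor STAT4, and it drives effector differentiation and interferon gamma (IFN-γ) production in T cells. IL-18 belongs to the IL-1 family and signals through IL-18R1 and IL-18RAP, MyD88 and IRAK kinases to NF-κB and the MAP kinases. The cytokines are known to act together on IFN-γ production in T and NK cells.

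The 4 libraries held between 33297668 and 35062545 counts, and all 10 between 31281944 and 35062545. The labels call the libraries biological replicates without saying that they came from separate animals, so every p-value reflects only how these particular samples vary. The replicates of a group differed by more than counting noise (chi-square per degree of freedom 3.26 in DRIL18 and 4.81 in the mixture), and no library was counted as a copy of another. All 10 tested CD8 T cell markers were present in every library, with summed levels of 10600 and 10820 CPM (read counts scaled to a common library size with TMM factors) in DRIL18 and 8650 and 8865 CPM in the mixture. Of the markers of other cells, S100a8, S100a9 and Elane (granulocytes), C1qa and C1qb (macrophages) and Clec9a and Siglech (dendritic cells) had 0 counts in all 4 libraries, while other members of these lists were expressed. The dendritic cell list summed to between 181 and 187 CPM in DRIL18 and to between 316 and 320 CPM in the mixture, with 5 of 7 tested members higher and 1 lower. Most of that sum was Irf8 and Batf3, and Xcr1 rose from 183 to 543 counts while Itgax fell from 134 to 20. The monocyte and macrophage list summed to between 151 and 152 CPM in DRIL18 and to between 47.9 and 51.4 CPM in the mixture. Ly6c2, which effector and memory CD8 T cells also express, made up most of it (143 to 39.6 CPM). Cd4 stood at 5.94 CPM in DRIL18 and 5.25 CPM in the mixture, and the B cell gene Cd79a at 5.18 CPM in DRIL18 and 4.96 CPM in the mixture. The γδ T cell list summed to between 104 and 111 CPM in DRIL18 and to between 49.3 and 50.7 CPM in the mixture, with 6 of 8 tested members lower. Ighm, the IgM heavy chain gene, had means of 898 and 523 CPM. Both mixture libraries and DRIL18 replicate 2, but not DRIL18 replicate 1, carry the mark bis in the deposited column names, whose meaning is not given. With the mark as a covariate 8541 genes changed in place of the 9042 given below. The part of such cells and of this mark in the results below was not tested, and in bulk RNA fewer cells of a type and less RNA per cell cannot be told apart.

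Reads of Il18 (ENSMUSG00000039217) were checked first, since both groups received DRIL18. They stood at 412 and 401 CPM in the DRIL18 libraries and at 403 and 361 CPM in the mixture libraries. Mixture replicate 2 was thus the lowest of the 4, and the difference did not pass the test (log2 fold change -0.09 ± 0.04 SE, adjusted p = 0.0696, edgeR's quasi-likelihood test with Benjamini-Hochberg adjustment over all genes). It did pass without mixture replicate 1 (-0.17, adjusted p = 0.00293), with limma-voom (-0.09, adjusted p = 0.0383) and with the replicate number as a block (-0.09, adjusted p = 0.0374). In the groups without DRIL18 mRNA, Il18 had means of 1.84 CPM (Mock) and 1.78 CPM (IL12), against 406 CPM in DRIL18 and 382 CPM in the mixture. High Il18 reads were thus seen only where DRIL18 mRNA was given. Within those libraries, counts per gene do not tell transcripts of the endogenous gene from the electroporated mRNA, and their shares were not tested. The IL-12 mRNA could not be read: Il12a had 12 counts over both DRIL18 libraries and 10 over both mixture libraries, and Il12b had 0 in both groups.

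Adding IL-12 mRNA moved much of the transcriptome. Of 15777 tested genes, 9042 changed at an adjusted p under 0.05 (57.3%), 4466 of them higher in the mixture (28.3%) and 4576 lower (29.0%). The median absolute log2 fold change among the changed genes was 0.52, and 2220 genes (14.1%) changed at least 2-fold, with 934 higher (5.92%) and 1286 lower (8.15%). The 2 libraries of the mixture lay entirely above or below those of DRIL18 for 12175 genes (77.2%), among them 9025 of the 9042 changed ones. With so many genes past the test, a list of genes is described here by how far its counts in each direction depart from 28.3% and 29.0%, and by its median log2 fold change against the median of -0.01 over all tested genes.

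Ifng, which encodes IFN-γ, had the largest gain in CPM of all genes that passed the test. Ifng (ENSMUSG00000055170) stood at 17.5 and 17.2 CPM in the DRIL18 libraries and at 8882 and 9109 CPM in the mixture libraries. Both mixture libraries were far above both DRIL18 libraries, a 519-fold rise (log2 fold change 9.02 ± 0.06 SE, adjusted p = 1.10e-39). The transcript Gm49751, which overlaps Ifng on the same strand, rose with it from 0.614 to 261 CPM (8.73 ± 0.10), and reads of the overlap cannot be assigned to either with certainty. The 250 bases before the Ifng start (RefSeq, GRCm38.p6) are shown because this is the gene that the addition moved most in CPM. Capitals mark the match to the STAT palindrome TTCNNNGAA, which begins 249 bases before the start.

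Ifng, chr10:118440796-118441045, plus strand: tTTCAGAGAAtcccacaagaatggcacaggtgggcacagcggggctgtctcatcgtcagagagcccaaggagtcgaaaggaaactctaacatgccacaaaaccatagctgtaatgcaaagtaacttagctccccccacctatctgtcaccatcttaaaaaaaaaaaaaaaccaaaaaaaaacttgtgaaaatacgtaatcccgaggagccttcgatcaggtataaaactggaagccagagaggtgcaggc

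Of 10365 tested genes with a RefSeq start, 6.09% held TTCNNNGAA in these 250 bases on either strand (the motif equals its own reverse complement), against 8.1% of the 617 genes that rose at least 2-fold and 5.93% of the 792 that fell at least 2-fold. The match is a description of letters, and no binding was measured.

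Other cytokine genes rose as well. Of 19 tested genes of the effector cytokine list, 13 rose and 2 fell, with a median log2 fold change of 0.725, also when the 2 members with 0 counts in DRIL18 are set at their bound. The median became 0.88 without DRIL18 replicate 2. Il22, whose product acts on epithelial cells, had 0 counts in both DRIL18 libraries and 31.2 and 35.2 CPM in the mixture libraries. With 3 counts over both DRIL18 libraries as the floor, this is at least 759.1-fold higher. Il6 stood at 0.144 and 0.0295 CPM in DRIL18 and at 23.6 and 22.5 CPM in the mixture (7.98 ± 0.30, adjusted p = 1.38e-19). The anti-inflammatory cytokine gene Il10 rose from 1.72 ± 0.139 CPM (SD, n = 2) to 43.9 ± 1.58 CPM, a 25.5-fold change. Csf2, which encodes GM-CSF, rose 25.9-fold, from 1.18 to 30.7 CPM. The type 2 cytokine gene Il13 rose from 1.56 to 15.4 CPM (3.30 ± 0.19), while Il4 had means of 0.321 and 0.338 CPM and did not pass the test. Tnf rose less, from 26.5 and 26.2 CPM to 45.3 and 41.9 CPM (0.72 ± 0.07, adjusted p = 9.58e-11). The members that fell were Il16 (-1.28) and Ltb, which encodes lymphotoxin beta (-0.38).

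Chemokine genes did not move together. Of 12 tested members, 4 rose and 3 fell. Cxcl10, an IFN-γ-induced ligand of CXCR3, rose from 6.39 to 34.4 CPM (2.43 ± 0.13). Ccl5, a chemokine of memory and effector CD8 T cells, fell from 22.6 and 23.5 CPM to 4.38 and 4.0 CPM (-2.46 ± 0.12, adjusted p = 2.19e-17).

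**Figure D1:**
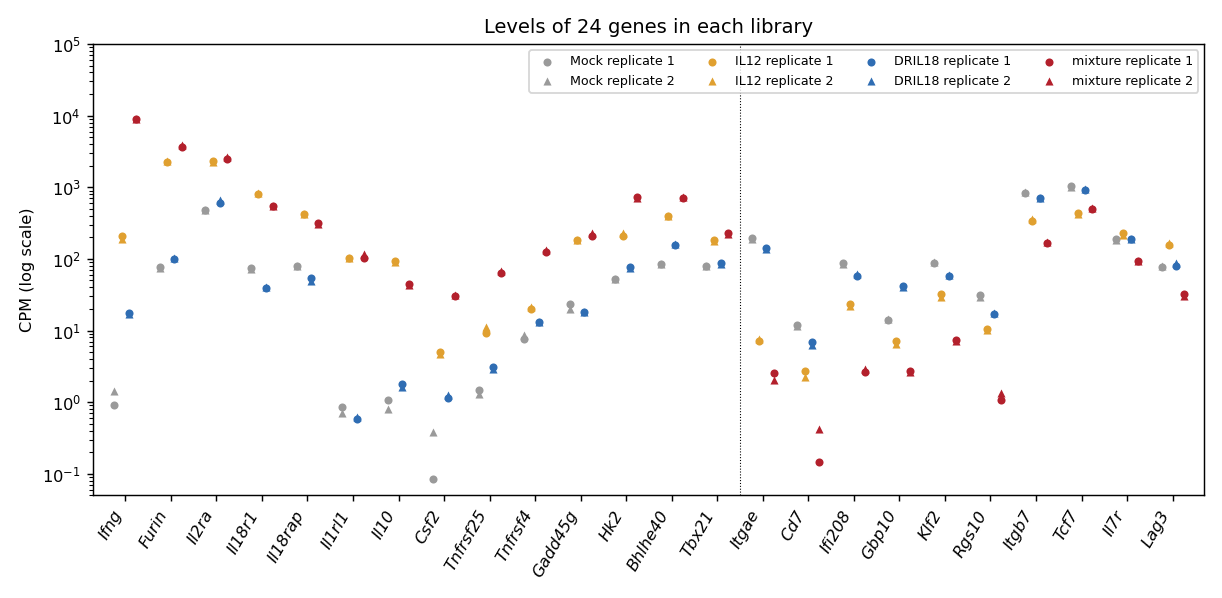
CPM (log axis) of 24 genes in the libraries of Mock, IL12, DRIL18 and the mixture, one point a library; genes left of the dotted line rose in the mixture against DRIL18 and genes right of it fell. For Ifng the mixture libraries stand at 8882 and 9109 CPM against 17.5 and 17.2 CPM in DRIL18, and for Itgae at 2.57 and 2.02 CPM against 144 and 138 CPM.

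Among the receptors of the 2 delivered cytokines, the IL-18 receptor chains rose most. Il18r1 (ENSMUSG00000026070), the ligand-binding chain, stood at 39.0 and 40.7 CPM in DRIL18 and at 548 and 554 CPM in the mixture. That is a 13.8-fold rise with no overlap between groups (3.79 ± 0.05 SE, adjusted p = 2.12e-32). Il18rap, the signalling chain, rose 6.0-fold, from 54.3 and 49.3 CPM to 316 and 307 CPM (2.59 ± 0.05). Il1rl1, which encodes the IL-33 receptor ST2, rose from 0.577 and 0.619 CPM to 104 and 116 CPM, a 183-fold change (7.52 ± 0.12). Il1rl2, Il1rl1, Il18r1 and Il18rap follow each other on mouse chromosome 1 in GENCODE M21, and Il1rl2, which encodes an IL-36 receptor chain, rose too, from 2.36 to 6.57 CPM (1.48). Il1r2, a decoy receptor gene of the same cluster, had means of 0.292 and 0.427 CPM and did not pass the test. Over the whole list of IL-18 receptor and MyD88 signalling genes, 9 of 18 tested members rose and 5 fell, with a median of 0.27. The adaptor gene Myd88 (0.98) and the inhibitory kinase-like gene Irak3 (1.30) were among those that rose, and Sigirr, an inhibitory receptor of the family, fell (-0.55). Il18bp, which encodes the soluble decoy of IL-18, fell from 10.3 to 7.56 CPM (-0.44).

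The IL-12 receptor chains moved in opposite directions. Il12rb2, the chain that recruits STAT4, rose from 119 and 120 CPM to 254 and 255 CPM (1.09 ± 0.04, adjusted p = 5.14e-20). Il12rb1 fell from 182 and 177 CPM to 143 and 142 CPM (-0.33 ± 0.04, adjusted p = 6.72e-09), and Stat4 fell slightly (-0.23 ± 0.05). In the IL-12 receptor and JAK-STAT list, 5 of 16 tested members rose and 8 fell (median -0.16). Stat5a (0.94) and Il6st, the shared chain of the IL-6 family receptors (1.17), rose, whereas Stat2 (-1.06) and Jak1 (-0.67) fell. Among the feedback inhibitors, Socs3 rose from 40.7 to 97.3 CPM (1.26 ± 0.05), and Cish rose by less (0.53). Socs2 fell from 58.2 to 28.2 CPM (-1.04). Socs1 stood at 82.9 and 84.6 CPM in DRIL18 and at 89.6 and 91.4 CPM in the mixture and did not pass the test (0.11 ± 0.05, adjusted p = 0.0573), but did with median-of-ratios scaling (0.13, adjusted p = 0.0383) and in a fit of the 4 libraries alone (0.12, adjusted p = 0.0193).

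Of the IL-2 receptor, the high-affinity chain moved most. Il2ra, which encodes CD25, rose 4.09-fold, from 606 and 655 CPM to 2506 and 2655 CPM, and it had one of the 5 largest gains in CPM. Il2rb rose from 887 to 1281 CPM (0.53) and Il2rg by 0.10. Il7r, the receptor chain of the survival cytokine IL-7, fell from 188 and 191 CPM to 93.7 and 93.6 CPM (-1.02 ± 0.04, adjusted p = 5.03e-20), and Il4ra fell by 0.60 on the log2 scale. Of the 8 tested γ chain family members, 3 rose and 5 fell.

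In contrast to the JAK-STAT list, genes of the NF-κB and AP-1 lists mostly rose. Of 27 tested NF-κB subunits, inhibitors and targets, 18 rose and 4 fell (median 0.35). Nfkbiz, an inhibitor-like coactivator, rose from 27.4 to 116 CPM (2.08 ± 0.06), Bcl3 rose by 1.55, and the subunit gene Nfkb2 rose by 1.00, while Nfkb1 fell slightly (-0.09). Of 16 AP-1 factors, 12 rose and 3 fell (median 0.70), led by Jun (24.6 to 155 CPM, 2.66), Fosl2 (19.3 to 103 CPM, 2.41) and Junb (103 to 370 CPM, 1.84) among members above 5 CPM. In the GADD45 and p38 list the stress-sensor gene Gadd45g stood at 18.1 and 18.4 CPM in DRIL18 and at 210 and 231 CPM in the mixture, a 12.1-fold rise (3.59 ± 0.06). Gadd45b rose 3.32-fold, but Gadd45a did not pass the test at under 1 CPM, and the p38 activator gene Map2k6 fell (-1.84), so that 6 of 13 members rose and 5 fell. Of 19 genes of the PIM kinase and MYC network list, 15 rose and 4 fell (median 0.65): Pim1 (1.37), Pim2 (1.52), Myc (0.85) and the nucleolar genes Ncl and Npm1 (0.65 and 0.71) rose. The MYC antagonist genes Mxd4 (77.9 to 18.1 CPM, -2.11) and Mxd3 (-1.37) fell, and their relative Mxd1 rose (1.79).

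Transcription factors of effector differentiation split. Of 25 tested, 13 rose and 9 fell, with a median of 0.20 that became 0.37 without mixture replicate 2. Tbx21, which encodes T-bet, rose from 88.6 and 85.2 CPM to 228 and 226 CPM (1.38 ± 0.04, adjusted p = 2.25e-23). Its relative Eomes, a factor of memory CD8 T cells, fell from 4.44 and 5.63 CPM to 1.26 and 1.25 CPM (-2.01 ± 0.20, adjusted p = 3.49e-10). Bhlhe40, a factor known for its part in cytokine production, rose from 160 to 718 CPM (2.16), Zeb2, a factor of terminal effector cells, from 4.26 to 25.3 CPM (2.57), Hopx from 20.1 to 77.9 CPM (1.96) and Prdm1, which encodes Blimp-1, from 15.8 to 36.5 CPM (1.21). Ikzf2 (-1.47), Myb (-1.18) and Gata3 (-0.92) fell.

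The naive and memory list went the other way. Of 30 tested members 22 fell and 7 rose, with a median of -0.86. Klf2, which sustains quiescence and lymph node homing, stood at 57.2 and 58.7 CPM in DRIL18 and at 7.36 and 7.06 CPM in the mixture, an 8.04-fold fall (-3.01 ± 0.07). Pik3ip1, an inhibitor of PI3 kinase, fell 7.57-fold and Klf3 4.41-fold. Tcf7, which encodes the memory factor TCF-1, fell from 916 and 950 CPM to 493 and 509 CPM (-0.90 ± 0.04, adjusted p = 1.22e-19). S1pr1, the lymph node exit receptor gene, fell from 96.5 to 30.9 CPM (-1.64). Satb1 (297 to 824 CPM, 1.47) and Bcl6 (5.89 to 16.8 CPM, 1.51) were the members with the largest rises. Among chemokine receptors, Cxcr3 fell from 224 to 80.7 CPM (-1.48) and Ccr7 from 200 to 129 CPM (-0.64), with 8 of 19 members higher and 5 lower.

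The adhesion list held the largest fall among genes that meet the naming rule. Itgae (ENSMUSG00000005947), which encodes CD103, the integrin chain by which T cells bind E-cadherin in epithelia, stood at 144 and 138 CPM in DRIL18 and at 2.57 and 2.02 CPM in the mixture. This 61.3-fold fall (-5.94 ± 0.08 SE, adjusted p = 3.41e-32) left the groups far apart. Haspin overlaps Itgae on the opposite strand and fell by 0.96 on the log2 scale, from 55.9 to 28.8 CPM. The kit marks strand, but the strand setting of the counting is not stated, so reads of such pairs may not be told apart. Itgb7, which encodes the β chain that pairs with CD103, fell from 706 and 705 CPM to 165 and 170 CPM (-2.08 ± 0.04), and Itga4 fell from 245 to 83.4 CPM (-1.55). Cdh1, which encodes E-cadherin itself, fell from 3.32 to 0.0883 CPM, a level of 6 counts over both mixture libraries. Itgb5 rose from 2.11 and 1.65 CPM to 44.9 and 49.9 CPM (4.65 ± 0.14). The leukocyte integrin gene Itgb2 had means of 365 and 364 CPM and did not pass the test. In all, 4 of 23 tested members rose and 13 fell, with a median of -0.78 that became -0.58 without DRIL18 replicate 1, -0.68 without DRIL18 replicate 2 and -0.53 without mixture replicate 1. The receptor gene Tgfbr1 (-1.26) and Smad3 (-0.68), of the TGF-β pathway that is known to sustain CD103, also fell, but over the TGF-β list 8 of 22 members rose and 8 fell.

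Receptors that tune T cell activation moved in both directions. Within the TNF receptor superfamily Tnfrsf25, which encodes DR3, rose from 3.09 and 2.89 CPM to 63.6 and 67.4 CPM (21.9-fold). Tnfrsf4, which encodes OX40, rose from 13.1 and 13.0 CPM to 124 and 133 CPM (9.86-fold), and Tnfrsf9, which encodes 4-1BB, from 77.7 to 331 CPM (4.26-fold). Cd27 moved against these relatives, from 217 to 62.1 CPM (-1.81). In the SLAM family Slamf6 (-1.87) and Cd84 (-1.14) fell and Slamf7 (1.75) and Slamf1 (1.02) rose. Altogether 11 of 23 costimulatory receptor genes rose and 11 fell. Of 19 inhibitory receptor genes 7 rose and 12 fell (median -0.40). Lag3 fell from 78.5 and 86.9 CPM to 32.5 and 30.1 CPM (-1.40 ± 0.06, adjusted p = 1.31e-19), Cd160 from 38.8 to 10.9 CPM (-1.83), Cd96 from 164 to 56.9 CPM (-1.52) and Ctla4 from 202 to 153 CPM (-0.40). Havcr2, which encodes TIM-3, rose from 10.4 and 10.7 CPM to 18.2 and 19.8 CPM (0.85 ± 0.09, adjusted p = 4.20e-09). Pdcd1, which encodes PD-1, rose from 17.3 and 16.1 CPM to 24.9 and 22 CPM (0.49 ± 0.09, adjusted p = 1.78e-05), and Btla (24.0 to 99.6 CPM) and Tigit (13.4 to 39.6 CPM) rose by 2.05 and 1.56. Of 10 TNF family ligands 7 rose, among them Tnfsf4, the ligand gene of OX40 (9.56 to 48.9 CPM, 2.35), and Fasl (0.84), and 3 fell, among them Tnfsf10, which encodes TRAIL (-1.39).

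The cytotoxic granule genes showed no common direction. Prf1, which encodes perforin, rose from 13.2 and 13.2 CPM to 34.9 and 36.4 CPM (1.44 ± 0.08, adjusted p = 8.86e-16). Gzmb, the most abundant granzyme gene here in CPM, fell from 1701 and 1832 CPM to 1320 and 1379 CPM (-0.39 ± 0.05, adjusted p = 1.08e-07), and Gzma fell from 183 to 111 CPM (-0.72). Over the list 9 of 23 members rose and 10 fell. Of 16 natural killer receptors 5 rose and 7 fell, with a median of -0.10 that was positive without DRIL18 replicate 1 (0.05), DRIL18 replicate 2 (0.05) or mixture replicate 1 (0.09) and -0.38 without mixture replicate 2. Serpinb9, the granzyme B inhibitor gene, rose from 32.2 and 32.5 CPM to 141 and 140 CPM (2.12 ± 0.05). The serpin list had 7 of 11 members higher and 3 lower, the latter including Serpina3g (-1.63) and Serpina3f (-1.76), near-identical paralogs whose reads may be split uncertainly. Of 15 purinergic genes 8 rose and 5 fell (median 0.46, but 0.87 without DRIL18 replicate 2, 0.26 without mixture replicate 1 and 0.70 without mixture replicate 2). P2rx7, an ATP-gated channel gene, rose 39.1-fold from 1.46 to 57.1 CPM, and Adora2a, the adenosine receptor gene, rose 4.77-fold from 38.2 to 182 CPM, while Nt5e, which encodes the adenosine-producing enzyme CD73, fell from 9.12 to 2.52 CPM (-1.86).

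Beside the 519-fold rise of Ifng, most genes known as interferon targets fell. Of 37 tested genes of the IFN-γ receptor and response list, 24 fell and 9 rose, with a median of -1.0. Irf1, a transcription factor gene of this response, fell from 276 and 272 CPM to 162 and 149 CPM (-0.82). The receptor genes fell as well: Ifngr1 from 268 and 282 CPM to 161 and 151 CPM (-0.82 ± 0.04) and Ifngr2 from 13.4 and 12.9 CPM to 3.68 and 4.54 CPM (-1.67 ± 0.12). Members of the list that encode guanylate-binding proteins and immunity-related GTPases, effectors against intracellular pathogens, moved both ways. Those that fell included Gbp10 (41.2 to 2.69 CPM, -3.93), Gbp6 (143 to 24.1 CPM, -2.58), Irgm2 (202 to 55.7 CPM, -1.86) and Ifi47 (369 to 127 CPM, -1.54). Gbp2 (732 to 884 CPM, 0.27) and Gbp5 (128 to 212 CPM, 0.72) rose, as did Cxcl10, Icam1 (61.8 to 184 CPM, 1.58) and Irf8 (89.3 to 190 CPM, 1.09). These GTPase families hold close paralogs, so reads may be split uncertainly between members.

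The type I interferon list fell more uniformly. Of 44 tested members, 37 fell and 1 rose, with a median of -0.89. Irf7, the amplifier of type I interferon responses, stood at 33.7 and 34.1 CPM in DRIL18 and at 4.90 and 4.83 CPM in the mixture (-2.80 ± 0.09). The antiviral genes Rtp4 (9.99 to 0.517 CPM, -4.27), Cmpk2 (20.8 to 1.23 CPM, -4.07) and Ifit1bl1 (35.2 to 3.25 CPM, -3.44) fell most among members above 5 CPM. The member that rose was Usp18 (8.30 to 18.7 CPM, 1.17), whose product dampens type I interferon receptor signalling. Of the 10 interferon regulatory factors 8 fell and 1, Irf8, rose (median -0.32, and -0.52 without mixture replicate 1). In the Ifi200 family of DNA sensors 7 of 10 fell and 1 rose (median -1.71). Ifi208 fell from 57.9 and 61.4 CPM to 2.60 and 2.94 CPM (21.5-fold), Ifi213 16.9-fold and Ifi206 6.50-fold. These lie in one cluster on chromosome 1 in GENCODE M21, and next to Ifi206 Aim2 had means of 57.4 and 59.0 CPM and did not pass the test, while Ifi211, which overlaps Mndal on the same strand, rose from 2.80 to 27.2 CPM (3.28).

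**Figure D2:**
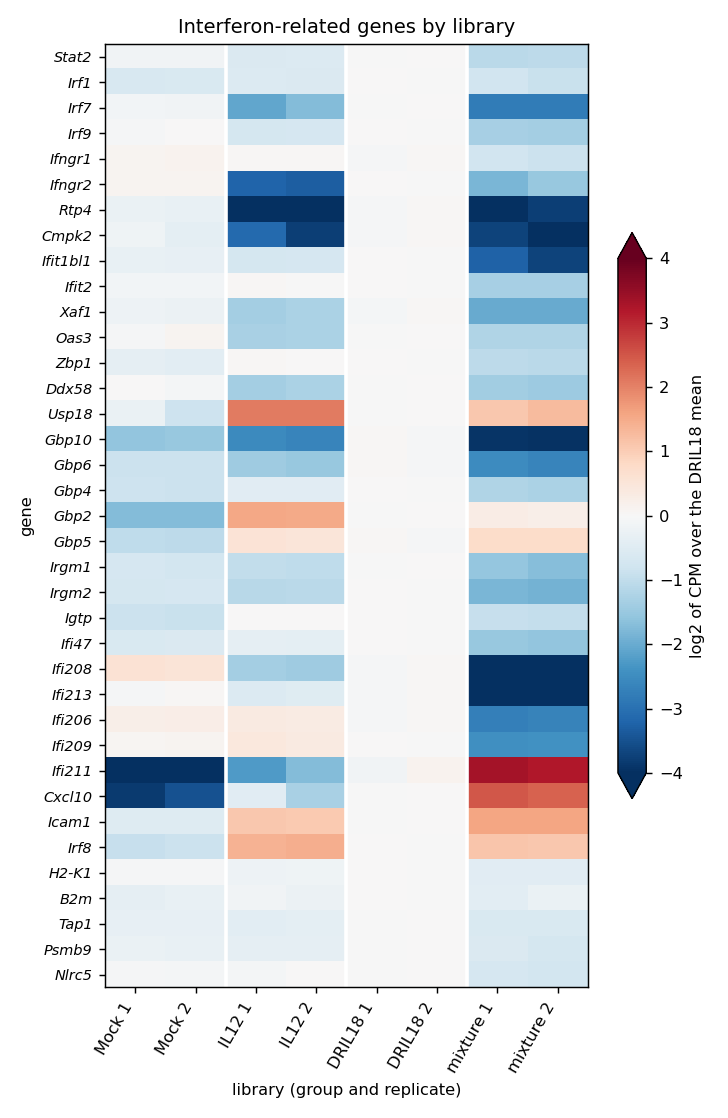
Log2 of CPM over the DRIL18 mean for 37 interferon-related genes (rows) in the libraries of Mock, IL12, DRIL18 and the mixture (columns); red is higher and blue lower than DRIL18, with values beyond 4 drawn in the end colours. In both mixture columns Irf7, Gbp10 and Ifi208 are below DRIL18 and Usp18, Gbp5, Ifi211, Cxcl10, Icam1 and Irf8 are above it.

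Promoters of this list were compared with all others because its members moved together. The interferon response letters (GAAA, any 2 bases, GAAA) were searched on both strands of the 250 bases before RefSeq starts. Shares of genes use only the first listed start of each gene. The letters were present in 43.8% of 32 type I interferon list members with a start, against 2.73% of 10365 tested genes. Over all 32851 promoters, which count every listed start, the share was 2.98%. The letters were present in 6.44% of the 792 genes that fell at least 2-fold and in 3.24% of the 617 that rose at least 2-fold. The falling genes include members of the list, of which 20 of 44 tested fell at least 2-fold. No share was counted without them. The list is known for this element, so its own share is background rather than a finding. The 4 members with the largest falls among those that hold the letters are shown (GRCm38.p6), with the matches in capitals. Ifit1bl1 fell by 3.44, Rsad2 by 3.37 (1.71 to 0.162 CPM), Oas1a by 1.95 (3.49 to 0.897 CPM) and Ifit3 by 1.84 (2.32 to 0.647 CPM) on the log2 scale.

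Ifit1bl1, chr19:34601969-34602218, minus strand: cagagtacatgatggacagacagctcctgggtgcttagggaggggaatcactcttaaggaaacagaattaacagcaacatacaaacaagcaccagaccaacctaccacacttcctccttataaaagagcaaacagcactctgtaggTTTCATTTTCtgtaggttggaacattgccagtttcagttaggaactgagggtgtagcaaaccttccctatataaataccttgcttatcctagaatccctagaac
Rsad2, chr12:26456453-26456702, minus strand: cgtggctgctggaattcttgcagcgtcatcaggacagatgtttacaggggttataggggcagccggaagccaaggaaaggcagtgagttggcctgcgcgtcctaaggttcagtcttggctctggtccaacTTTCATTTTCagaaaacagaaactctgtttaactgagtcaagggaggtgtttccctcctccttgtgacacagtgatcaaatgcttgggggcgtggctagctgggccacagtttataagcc
Oas1a, chr5:120907526-120907775, minus strand: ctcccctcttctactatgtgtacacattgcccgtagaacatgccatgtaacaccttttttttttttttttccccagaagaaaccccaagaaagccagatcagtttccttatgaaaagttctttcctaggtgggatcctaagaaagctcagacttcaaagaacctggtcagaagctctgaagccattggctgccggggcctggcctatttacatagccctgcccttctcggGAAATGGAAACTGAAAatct
Ifit3, chr19:34583279-34583528, plus strand: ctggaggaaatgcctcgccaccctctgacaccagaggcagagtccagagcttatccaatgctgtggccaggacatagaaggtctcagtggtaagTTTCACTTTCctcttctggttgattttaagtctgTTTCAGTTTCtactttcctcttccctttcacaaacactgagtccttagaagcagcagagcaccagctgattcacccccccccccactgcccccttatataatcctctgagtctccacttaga

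In Ifit3 the matches begin 156 and 122 bases before the start, and in Oas1a overlapping matches begin 20 and 14 bases before it. In Ifit1bl1 the match begins at 104 and in Rsad2 at 120 bases before the start. No binding was measured.

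Antigen presentation genes followed the interferon lists. Of 23 genes of MHC class I processing 20 fell and 2 rose, with a median of -0.45 and no change of 2-fold. H2-K1 fell from 2351 and 2322 CPM to 1721 and 1692 CPM (-0.45 ± 0.03, adjusted p = 2.95e-13), among the 5 largest losses in CPM. The transporter gene Tap1 (-0.60), the immunoproteasome gene Psmb9 (-0.64) and the class I regulator gene Nlrc5 (581 to 357 CPM, -0.70) fell, and the members that rose, Calr (0.51) and Pdia3 (0.24), encode general chaperones of the endoplasmic reticulum. H2 genes are near-identical copies, and their reads may be shared. In the class II list 5 of 11 fell and 2 rose: H2-Oa (16 to 3.23 CPM, -2.31) and H2-DMa (56.1 to 18.3 CPM, -1.61) fell, and H2-Ab1 rose (0.33), a call that DESeq2 did not make (0.34, adjusted p = 0.069).

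The T cell receptor complex fell slightly but widely. Of 24 members of the receptor and proximal signalling list 22 fell and 2 rose, with a median of -0.35. Cd3g fell from 418 and 420 CPM to 225 and 209 CPM (-0.95 ± 0.04), Plcg1, the phospholipase gene, from 233 to 96.6 CPM (-1.27), Cd5 from 84.8 to 37.0 CPM (-1.19), and Zap70 by only 0.19 on the log2 scale. Lcp2, an adaptor gene, rose (0.36), as did Fyn (0.08). All 10 CD8 T cell markers fell, by between 0.15 and 0.61 on the log2 scale.

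Most genes of the glycolysis, hypoxia, cholesterol and ATF4 lists rose. Of 23 glycolysis genes 20 rose and 2 fell, with a median of 0.84. Hk2 (ENSMUSG00000000628), the inducible hexokinase gene, stood at 76.7 and 75.2 CPM in DRIL18 and at 731 and 714 CPM in the mixture, a 9.52-fold rise (3.25 ± 0.05). The glucose transporter gene Slc2a1 (90.4 to 308 CPM, 1.77) and the lactate exporter gene Slc16a3 (83.1 to 283 CPM, 1.77) followed. Gapdh (3229 to 5610 CPM, 0.80) and Pkm (1596 to 3069 CPM, 0.94) were among the 5 largest gains in CPM. Of 20 hypoxia response genes 15 rose (median 0.91), including Hif1a (296 to 800 CPM, 1.43) and Vegfa (11.4 to 42.5 CPM, 1.90). Of 25 cholesterol synthesis genes 21 rose and 1 fell (median 0.72), for instance Lss, which encodes lanosterol synthase (1.26). Of 16 fatty acid synthesis genes 11 rose and 4 fell (median 0.44). Of 33 ATF4 and amino acid genes 29 rose and 1 fell (median 0.79): Atf4 itself (167 to 372 CPM, 1.16), the asparagine synthetase gene Asns (1.48) and the transporter genes Slc7a3 (3.54) and Slc7a5 (1.14) rose, and Wars fell (-0.49). Of 25 genes of the unfolded protein response 23 rose and 0 fell (median 0.51), led by the stress sensor gene Ern1 (18.3 to 80.5 CPM, 2.13), with the chaperone gene Hspa5 at 0.74. Heat shock genes rose in 10 of 15 cases and fell in 0 (median 0.47). The oxidative phosphorylation list was close to all genes, with 13 of 36 higher, 9 lower, a median of 0.01 and no member changed by more than 0.35 on the log2 scale, and so was the ribosomal protein list, with 8 of 43 higher, 11 lower and a median of -0.03.

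Growth control genes were mixed. Of 50 cell cycle and replication genes 15 rose and 22 fell, with a median of -0.08. Ccnb2, a mitotic cyclin gene (204 to 125 CPM, -0.70), Foxm1 (-0.66) and Mki67 (-0.41) fell, and the G1 cyclin gene Ccnd3 rose from 288 to 563 CPM (0.97). Of 25 p53 targets and cell cycle inhibitors 17 rose and 6 fell (median 0.62). Cdkn1a, which encodes p21, rose 4.68-fold from 102 to 478 CPM, while Cdkn1b, which encodes p27, fell (-0.93). In the BCL2 family the survival gene Bcl2l1, which encodes BCL-XL, rose from 78.9 to 218 CPM (1.47) and Bcl2 fell (-0.34).

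**Figure D3:**
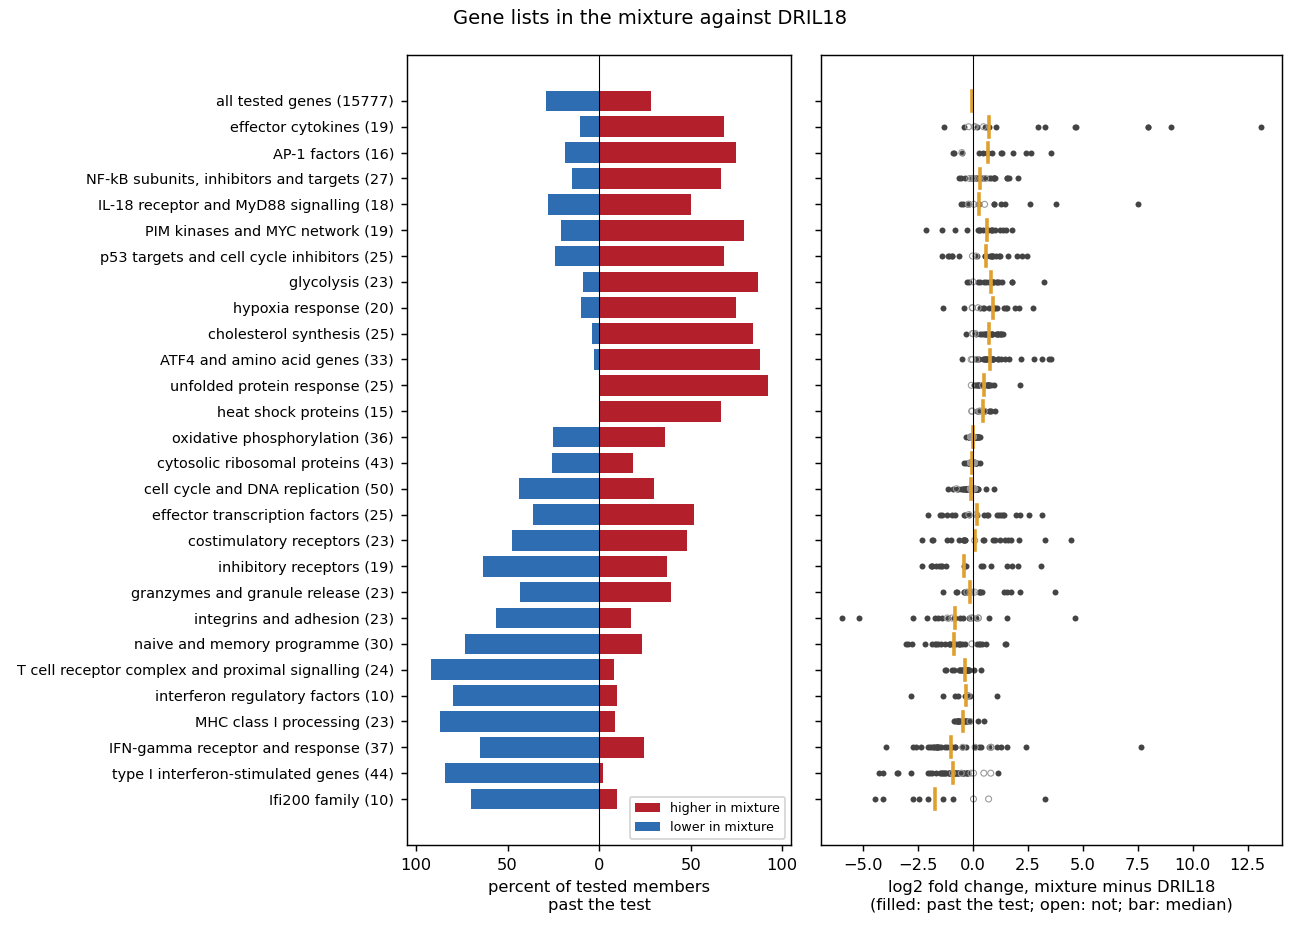
Left, percent of tested members of each list that were higher (red) or lower (blue) in the mixture than in DRIL18 at an adjusted p under 0.05, with the number of tested members in brackets; right, log2 fold change of each member (filled where it passed) and the list median (orange bar), with genes at 0 counts in DRIL18, such as Il22, drawn at fitted values that are no bound. The unfolded protein response and ATF4 lists lie to the right of 0 and the type I interferon and T cell receptor lists to the left, while all tested genes are at 28.3% higher and 29.0% lower.

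Several of the largest fold changes belonged to genes with few or no counts in DRIL18. Besides Il22, Gcnt3, which encodes a mucin-type glycosyltransferase, had 0 counts in DRIL18 and 72.6 and 73.6 CPM in the mixture, at least 1671-fold higher. The same floor gives at least 215.2-fold for the protease-like gene Prss35, 162.1-fold for the netrin receptor gene Unc5c and 134.2-fold for the chemokine receptor gene Cxcr1. Sema3b, which encodes a secreted semaphorin, rose from 0.144 and 0.118 CPM to 168 and 171 CPM (10.30 ± 0.14). Mylk2 had 1 count in DRIL18 and 780 in the mixture, a ratio of 787.0 with a counting interval from 140.8 to 31120, and Mmp13, a collagenase gene, had 1 and 425 counts, a ratio of 428.8 (76.55 to 16980). P2rx3, an ATP-gated channel gene, rose from 0.189 to 57.5 CPM (8.22). It overlaps Ssrp1 on the opposite strand, and Ssrp1 rose from 431 to 964 CPM (1.16). Furin (ENSMUSG00000030530), the proprotein convertase gene, gained the most CPM after Ifng, from 100 and 103 CPM to 3682 and 3898 CPM (37.2-fold).

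Among the 12 largest falls beside Itgae, Rtp4, Cmpk2, Gbp10 and the Ifi200 members, Gm14085 fell from 242 and 251 CPM to 7.15 and 5.49 CPM (38.9-fold). Cd7, which encodes a T and NK cell surface protein, fell from 6.81 and 6.31 CPM to 0.146 and 0.415 CPM (23.2-fold). Rgs10, a regulator of G protein signalling, fell from 17.1 and 17.4 CPM to 1.08 and 1.33 CPM (14.2-fold), and Slc14a1, a urea transporter gene, 15.7-fold. C030034L19Rik and AC132320.1, whose functions are not described here, fell 29.7-fold and 16.4-fold. In CPM, the largest losses were those of the abundant genes Eef1a1 (9680 to 8261 CPM, -0.23), mt-Co1 (8632 to 7572 CPM, -0.19), H2-K1, Coro1a (1800 to 1205 CPM, -0.58) and Arhgap45 (1020 to 446 CPM, -1.20).

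The addition was then compared with the same addition in control cells, which uses 4 other libraries. Across all 15777 genes, the log2 fold changes of the mixture against DRIL18 and of IL12 against Mock had a Pearson correlation of 0.56 and a Spearman correlation of 0.56, given as a description over genes, which are not independent replicates. Of the genes higher in the mixture, 2493 were also higher in IL12 than in Mock and 223 were lower there; of the genes lower in the mixture, 2696 were also lower and 306 were higher. The difference between the 2 effects passed its own test for 4993 genes (31.6%), 2296 of them in the direction of a higher effect with DRIL18 (14.6%) and 2697 in the direction of a lower one (17.1%). All 223 and all 306 genes with opposite calls were among them. Opposite calls in the same fit make a passing difference nearly certain, so this is no separate check of the reversals.

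For Ifng the effect was larger with DRIL18. The gene rose from 1.17 to 199 CPM between Mock and IL12 (7.42), against 9.02 in the presence of DRIL18, a difference of 1.60 ± 0.19 SE on the log2 scale (adjusted p = 3.57e-08). Il10 differed the other way: it rose from 0.939 to 91.2 CPM without DRIL18 (6.59) and to 43.9 CPM with it (4.67), a difference of -1.92 ± 0.24. The IL-18 receptor genes rose in both settings, with differences of 0.28 ± 0.06 for Il18r1 and 0.18 ± 0.07 for Il18rap, and the latter lost its call when any of 5 libraries was left out. These were DRIL18 replicate 2 (0.12, adjusted p = 0.313), mixture replicate 1 (0.16, adjusted p = 0.122), IL12 replicate 1 (0.17, adjusted p = 0.0808), and both Mock replicates in turn (0.17 and 0.19, adjusted p = 0.14 and 0.0899). For Prf1 (0.04 ± 0.12, adjusted p = 0.852), Havcr2 (0.12 ± 0.14, adjusted p = 0.59) and Csf2 (0.34 ± 0.47, adjusted p = 0.65) no difference passed.

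Lag3, Il7r and Il12rb1 reversed. Lag3 rose from 78.6 to 162 CPM when IL-12 mRNA was added to control cells (1.04) and fell from 82.7 to 31.3 CPM when it was added to DRIL18, a difference of -2.45 ± 0.08 (adjusted p = 1.04e-21). Il7r rose from 184 to 223 CPM without and fell with it (-1.29 ± 0.05). Il12rb1 rose by 0.18 without and fell by 0.33 with it on the log2 scale (difference -0.51 ± 0.05). Eomes stood at 13.5 CPM in Mock and 13.2 CPM in IL12, but fell with DRIL18 (difference -1.98 ± 0.24). The IFN-γ receptor chains differed in opposite ways: Ifngr1 fell with DRIL18 and did not pass the test in control cells (301 to 284 CPM, difference -0.74 ± 0.05), and Ifngr2 fell further in control cells (14.1 to 1.38 CPM, -3.35) than with DRIL18 (difference 1.67 ± 0.20). Pdcd1 rose by 1.36 without and 0.49 with DRIL18 (difference -0.87 ± 0.12).

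By list, the difference of effects was positive in 27 of 33 ATF4 and amino acid genes and in 20 of 25 genes of the unfolded protein response, against 14.6% of all genes. It was negative in 28 of 37 IFN-γ response genes, 24 of 44 type I interferon genes, 20 of 24 T cell receptor genes and 18 of 23 MHC class I genes, against 17.1% of all genes. Negative differences were not particular to these lists. Ribosomal protein genes had 27 negative and 0 positive of 43, and oxidative phosphorylation genes 16 and 0 of 36. The naive and memory list had 17 negative and 5 positive of 30, and the inhibitory receptors 12 and 3 of 19. The median effect of IL-12 mRNA without DRIL18 was 0.26 for the IFN-γ response list, 0.02 for the unfolded protein response and -0.06 for the T cell receptor list, beside -1.0, 0.51 and -0.35 with DRIL18. Glycolysis genes had like medians in both settings (0.92 without and 0.84 with DRIL18), and 2 of 23 members had a positive and 9 a negative difference.

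Of the 6 largest and 6 smallest differences, several rested on near-zero counts in one group. Gstm1, a glutathione transferase gene, stood at 0.864 CPM in Mock, 0.753 CPM in IL12 and 1.01 CPM in DRIL18, and at 198 and 217 CPM in the mixture (difference 7.89 ± 0.40, adjusted p = 2.54e-16). Itgb5 (6.25 ± 0.48) and Kctd14 (6.23 ± 0.44) fell in control cells and rose with DRIL18. Timp2, an inhibitor of matrix proteases, rose from 3.88 to 16.5 CPM in control cells and fell from 2.26 to 0.383 CPM with DRIL18 (-4.64 ± 0.30), and its relative Timp3 rose to 17.0 CPM in the mixture (5.42 ± 1.66), a call that was lost without Mock replicate 1 (1.77, adjusted p = 0.905). The same library decided the calls of Gpr83 (8.53, and 3.37 without it, adjusted p = 0.956) and Plagl1 (5.84, and 1.49 without it, adjusted p = 0.886). Gm44851, antisense to Furin, and Rufy4 had 0 counts in both Mock libraries, and their differences of -4.73 and -5.65 lost their calls without Mock replicate 1, Mock replicate 2 or DRIL18 replicate 1 (adjusted p from 0.0713 to 1). AC132320.1 (-4.68 ± 0.29), Gm5538 (-4.39 ± 0.46) and Cdh1 (-4.32 ± 0.50) had the other large negative differences.

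**Figure D4:**
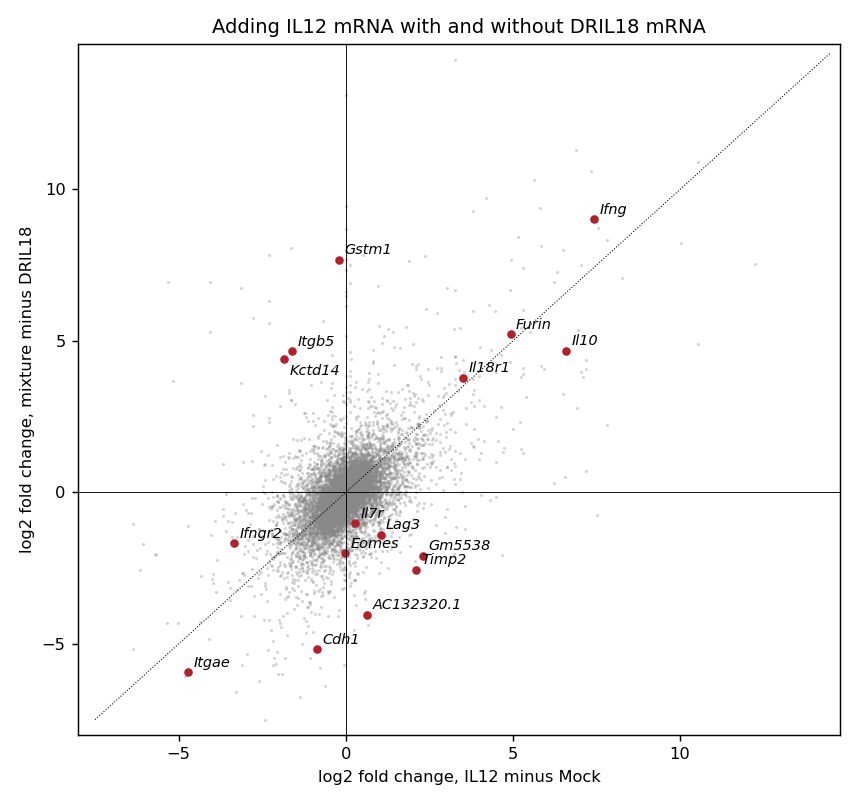
Log2 fold change of every tested gene on adding IL-12 mRNA, without DRIL18 (IL12 minus Mock, horizontal) and with it (mixture minus DRIL18, vertical), with equal effects on the dotted line. Ifng (7.42 and 9.02) and Itgae (-4.72 and -5.94) lie far from 0 in both. Itgb5 and Kctd14 are above 0 with DRIL18 and below it without, and Lag3, Timp2 and Gm5538 are above 0 without it and below it with it. Gstm1 is above 0 with DRIL18 and did not pass the test without it (-0.21). Genes at 0 counts in DRIL18, such as Il22, are drawn at fitted values that are no bound.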

How the data were processed

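Poly(A) RNA was sequenced in 10 libraries of 5 groups with 2 replicates each. The authors deposited raw counts per gene and a table of log2 CPM for 13225 genes. STAR 2.7.9, build mm39, featureCounts, edgeR and limma are named per the submitters' processing notes, with no strand setting given. The deposited log2 table equals voom values of the counts within 5e-14 and was not tested.

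Genes were filtered with filterByExpr and scaled with TMM, and all 10 libraries were fitted with 5 group means by edgeR 4.0.16 (quasi-likelihood test, R 4.3.3) with Benjamini-Hochberg adjustment over 15777 genes and a threshold of 0.05. The contrasts were mixture minus DRIL18, IL12 minus Mock, and their difference. CPM are counts scaled to a common TMM-adjusted library size. The code was tested on simulated data, with all groups drawn from the DRIL18 means. Of 15056 genes tested there, 50 were changed in the mixture at each fold size. That is far fewer than changed in the data, so the shares below need not hold for them. For the main contrast 18 of 183 calls were false, and for the difference 12 of 152, both above the threshold of 0.05. Of simulated 1.2-fold changes, 54% were found by the main contrast and 32% by the difference. At 2-fold these shares were 94% and 84%. Library totals of at least 31281944 counts limit precision for genes of few counts, where the floor was 3 counts.

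Members and gene lists were chosen with earlier results of these data known. Named genes were the 12 largest and 12 smallest fold changes that passed, did not overlap between groups and reached 5 CPM, the 5 largest CPM gains and losses, up to 4 members a list, key cytokine and T cell genes, genes at 0 counts in DRIL18 that reached 5 CPM, and the 6 largest and 6 smallest differences. Other members were named for their known roles after their values were seen. A few genes that these rules name are not reported here. Alternatives were RLE scaling, DESeq2 1.42.0, limma-voom (limma 3.58.1), other filters, fewer groups, a replicate block, the mark bis as a covariate, and leaving out each library.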

Additional observations from a re-analysis of the deposited data

Results flagged for a closer look

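The effect of adding IL-12 mRNA differed with and without DRIL18 by a test of the difference itself for 4993 genes, 2296 with a positive and 2697 with a negative difference. All differences below are log2 fold changes with minus without DRIL18 that passed that test.

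The negative differences were -5.65 for Rufy4, -4.73 for Gm44851, -4.68 for AC132320.1, -4.64 for Timp2, -4.39 for Gm5538 and -4.32 for Cdh1. Among cytokine, receptor and adhesion genes they were -2.45 for Lag3, -1.98 for Eomes, -1.92 for Il10, -1.29 for Il7r and -1.22 for Itgae, whose fall was thus deeper with DRIL18. Smaller ones were -0.87 for Pdcd1, -0.74 for Ifngr1, -0.55 for Socs1, -0.51 for Il12rb1, -0.51 for Il12rb2, -0.47 for Gzmb and -0.22 for Il2ra.

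The positive differences were 8.53 for Gpr83, 7.89 for Gstm1, 6.25 for Itgb5, 6.23 for Kctd14, 5.84 for Plagl1 and 5.42 for Timp3. Ifngr2 had 1.67, Ifng 1.60, Tnf 0.53, Tcf7 0.36, Il18r1 0.28, Tbx21 0.21 and Il18rap 0.18. The differences of Rufy4, Gm44851, Gpr83, Plagl1, Timp3 and Il18rap each lost their call when single libraries were left out, as given with their values in the report.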

How the results depend on the processing

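The count of changed genes between mixture and DRIL18 lay between 8156 (DESeq2) and 9133 (4 libraries alone) across the settings that used all libraries of the contrast, and between 7967 and 8089 when 1 library was left out. Genes changed at least 2-fold numbered 1989 (DESeq2) to 2291 (no filter on low counts), and 2013 to 2147 with 1 library left out. Genes for which the effect differed with and without DRIL18 numbered 4231 (DESeq2) to 5011 (mark bis as covariate), and 4156 to 4928 with 1 library left out. Direction was followed gene by gene only for 231 named genes in the main contrast and 38 in the difference. Among these, no change that passed the test reversed its direction. The median of the natural killer receptor list, which has no test, turned from -0.10 to 0.01 with the mark bis as a covariate and lay between -0.38 and 0.09 with 1 library left out. With the replicate number as a block the 3 counts were 9018, 2198 and 4980. The deviations of replicate 1 had a correlation of 0.00169 between mixture and DRIL18 over 15777 genes. With 2 replicates a group, this value cannot decide whether samples of equal number are paired, and the labels do not say. The block is therefore given only as an alternative, and it changed the call of Il18. Of single genes, limma-voom lost the difference of Rufy4 (-3.07, adjusted p = 0.0727). The cause of these changes was not tested. Depth limits genes of few counts, and 2 libraries a group limit every estimate of spread.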

Other observations

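The genes below were chosen after their values were seen, and no list of them was tested. Smox, which encodes spermine oxidase, rose from 4.75 to 171 CPM (log2 fold change 5.17), Gstm1 from 1.01 to 207 CPM (7.68) and Gstt1 from 5.15 to 54.9 CPM (3.41). Hmox1, which encodes heme oxygenase 1, rose from 4.44 to 19.5 CPM (2.14), and the reductase genes Gsr and Txnrd1 rose by 0.93 and 0.71. Of the glutamate-cysteine ligase genes, Gclm fell slightly (-0.18) and Gclc did not pass the test (51.1 and 47.9 CPM).

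Semaphorin genes also moved. Sema7a rose from 0.992 to 23.1 CPM (4.54) and Sema6d from 8.74 to 88.8 CPM (3.34), while Sema4a (216 to 100.4 CPM, -1.11) and Sema4d (450.1 to 331 CPM, -0.44) fell. Fes, the gene next to Furin on chromosome 7 in GENCODE M21, rose from 4.51 to 194 CPM (5.42). The activation marker gene Cd69 rose from 44.6 to 246 CPM (2.47). Among abundant genes that fell were Rasgrp2, a RAP1 exchange factor gene (248 to 27.9 CPM, -3.15), Lsp1, an actin-binding protein gene of leukocytes (487 to 115 CPM, -2.09), and the sialic acid genes Cmah (155 to 39.5 CPM, -1.97) and St8sia1 (102 to 22.1 CPM, -2.21).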
